A study of Solanum lycopersicum with 2 samples.

Results

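Gibberellins are diterpenoid hormones that promote cell elongation, and in tomato they shape leaf complexity, stem growth and fruit set. A chain of early enzymes makes the precursors in plastids and at the endoplasmic reticulum. GA20ox and GA3ox enzymes then carry out the late oxidation steps that give the active hormone, and GA2ox enzymes inactivate gibberellins. The active hormone binds the GID1 receptor, the complex captures a DELLA protein, and the DELLA protein is degraded through an F-box protein. PROCERA is the DELLA gene of tomato, and its protein represses growth responses until gibberellin removes it. In many plants DELLA activity keeps GA20ox and GA3ox transcripts high and GA2ox transcripts low, a feedback between the hormone and its own metabolism.

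The 10 genes described here are GA20ox1, GA20ox2, GA20ox3, GA3ox1, GA3ox2, GA2ox1, GA2ox2, GA2ox4, GA2ox5 and PROCERA. They were taken by their gene identifiers from a table of 34725 gene models, and all 10 were rows of it. The study compared leaf transcripts of transgenic tomato (Solanum lycopersicum) plants of the cultivar Ailsa Craig. Their B-type cyclin gene SlCycB2 was either overexpressed or targeted by RNA interference. One library came from plants that overexpress the gene (SlCycB2-OE) and 1 from plants in which it is targeted by RNA interference (SlCycB2 RNAi), both from young primary leaf of mature plants. Wild-type leaf was not analysed here, so no difference can be assigned to either manipulation alone. The promoter of the constructs, the number of transgenic lines and any pooling of plants are likewise not stated in the labels. A group is a single library, so replicate error cannot be given, no test was possible, and every difference describes these 2 libraries. In whole leaf, fewer cells of a type and less RNA per cell cannot be told apart.

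Levels are in RPKM, which counts the reads of a gene relative to its length and to the mapped reads of the library, so levels of different genes can be set side by side per length. Transcripts were listed above 0 for 23901 gene models in the SlCycB2-OE library and for 23804 in the SlCycB2 RNAi library. The identifier Solyc10g083140.1.1 stood at 4816 RPKM in SlCycB2-OE leaf and 12.34 RPKM in SlCycB2 RNAi leaf, the highest ratio in the table. In SlCycB2 RNAi leaf 67.4% of detected genes had a lower level than it. That identifier was noted from general knowledge as SlCycB2, the table gives it no name, and the RefSeq gene with the symbol CycB2 lies on chromosome 2, so the link was not checked. The row was picked as the one with the largest difference, so its rank is no separate check of the manipulation. The leaf label was set against 6 loci listed as photosynthesis genes, which lay between 2681 and 20710 RPKM in SlCycB2-OE leaf and between 3498 and 25689 RPKM in SlCycB2 RNAi leaf. All 6 were lower in SlCycB2-OE leaf, with a sum of 58736 RPKM there and 69909 RPKM in SlCycB2 RNAi leaf. The 4 loci listed as flower and fruit regulators reached at most 0.1 RPKM in SlCycB2-OE leaf and 0.17 RPKM in SlCycB2 RNAi leaf.

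Ratios are given as log2((RPKM + 1) / (RPKM + 1)), SlCycB2-OE over SlCycB2 RNAi, and this scale makes differences of low genes look smaller. A gene was compared when its mean RPKM over both libraries was at least 1, and was counted as apart at 2-fold or more either way. Of the 10 genes, 4 were compared (GA20ox1, GA20ox2, GA3ox2 and PROCERA) and 6 were below that mean. None of the 4 was 2-fold higher or 2-fold lower. Over all 19466 compared genes, 2.60% passed the limit as higher and 1.92% as lower in SlCycB2-OE leaf, so 0 of 4 is near what the background gives. The median log2 ratio of the 4 was 0.03, against 0.13 over all compared genes. Within the 4, GA20ox2 and PROCERA were slightly higher in SlCycB2-OE leaf, GA20ox1 was slightly lower, and GA3ox2 had the lowest ratio.

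**Figure D1:**
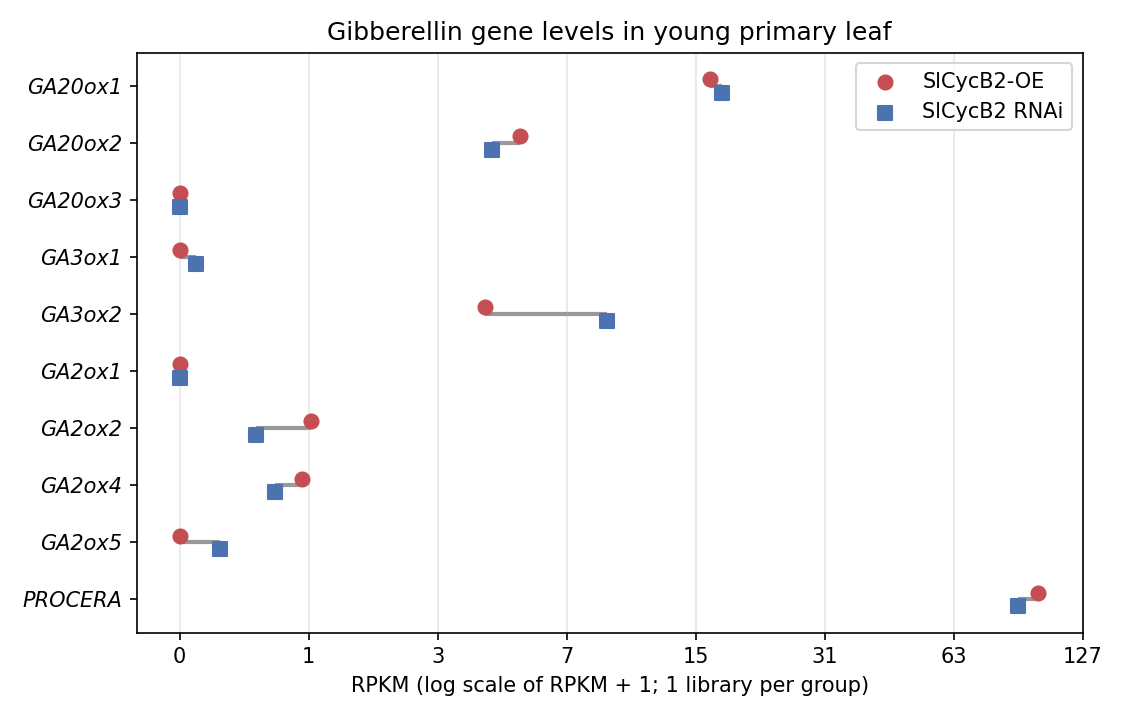
RPKM of each of the 10 genes (x axis, log scale of RPKM + 1) in the SlCycB2-OE library (circles) and the SlCycB2 RNAi library (squares), 1 library each, with a line joining the values of a gene. GA3ox2 has the longest line, 4.17 RPKM in SlCycB2-OE leaf against 8.92 RPKM in SlCycB2 RNAi leaf, while PROCERA and GA20ox1 lie close in both libraries.

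The GA20ox enzymes carry gibberellin precursors through several successive oxidations to the substrates of GA3ox. GA20ox1 (Solyc03g006880.2.1, chromosome 3 by its identifier) stood at 16.29 RPKM in SlCycB2-OE leaf and 17.39 RPKM in SlCycB2 RNAi leaf, a log2 ratio of -0.09. GA20ox2 (Solyc06g035530.2.1, chromosome 6) stood at 5.21 RPKM in SlCycB2-OE leaf and 4.36 RPKM in SlCycB2 RNAi leaf, a log2 ratio of 0.21. The 2 genes thus lay on opposite sides of 0 with small ratios, and 74.1% and 58.8% of the 1000 genes nearest to each in mean level were farther from 0. GA20ox3 (Solyc11g072310.1.1, chromosome 11) was listed at 0 in both libraries. Summed over the class, GA20ox transcripts were at 21.5 RPKM in SlCycB2-OE leaf and 21.75 RPKM in SlCycB2 RNAi leaf. GA20ox1 held 75.8% of that sum in SlCycB2-OE leaf and 80.0% in SlCycB2 RNAi leaf. Most GA20ox transcript in this leaf was therefore from GA20ox1 in both libraries.

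The GA3ox enzymes complete the synthesis of active gibberellin by a hydroxylation. GA3ox2 (Solyc03g119910.2.1, chromosome 3) stood at 4.17 RPKM in SlCycB2-OE leaf and 8.92 RPKM in SlCycB2 RNAi leaf. The SlCycB2-OE level was 0.467 of the SlCycB2 RNAi level, a log2 ratio of -1.10 without a pseudocount and of -0.94 with the pseudocount of 1. With that pseudocount this was the ratio farthest from 0 among the 10 genes, and it lay just short of the 2-fold limit. Of all compared genes, 2.10% had a lower ratio than GA3ox2, and of the 1000 genes nearest in mean level (5.98 to 7.08 RPKM) 1.5% did. Counting both directions, 5.16% of all compared genes and 4.3% of those 1000 were farther from 0. The call depended on the setting, since the log2 ratio was -1.08 with a pseudocount of 0.1, -1.08 after centring on the median ratio and -1.06 when a trimmed mean of ratios set the scale, each past 2-fold lower. At those settings 2.94%, 2.48% and 2.27% of all compared genes were 2-fold lower, in the same order. At a limit of 1.5-fold GA3ox2 was 1 of 4 genes lower and 0 of 4 were higher, against 4.59% and 9.37% of all compared genes. GA3ox1 (Solyc06g066820.2.1, chromosome 6) was listed at 0 in SlCycB2-OE leaf and at 0.09 RPKM in SlCycB2 RNAi leaf, where 1.81% of detected genes had a lower level. GA3ox2 therefore held 100% of the GA3ox sum in SlCycB2-OE leaf and 99.0% in SlCycB2 RNAi leaf.

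The order of the genes by level was the same at the top, with PROCERA first and GA20ox1 second in both libraries, and differed below. GA3ox2 stood at 0.800 times the level of GA20ox2 in SlCycB2-OE leaf and at 2.05 times in SlCycB2 RNAi leaf. GA20ox1 stood at 3.91 times the level of GA3ox2 in SlCycB2-OE leaf and at 1.95 times in SlCycB2 RNAi leaf. These ratios are between genes of 1 library, so no scaling between libraries enters them. Without replicates, neither the place of GA3ox2 above or below GA20ox2 nor that of any other neighbours in the order can be set against a spread.

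**Figure D2:**
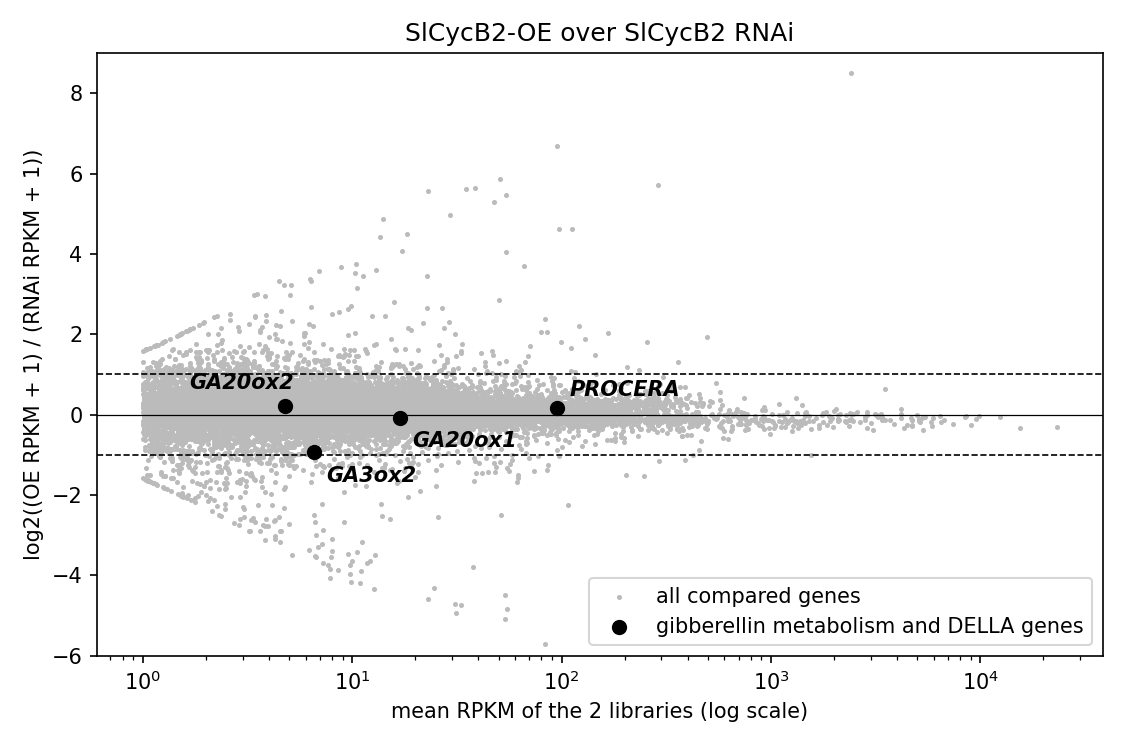
Log2 ratio of SlCycB2-OE over SlCycB2 RNAi (y axis, pseudocount of 1) against the mean RPKM of the 2 libraries (x axis, log scale) for the 19466 compared genes (grey) and the 4 compared gibberellin genes (black), with dashed lines at 2-fold. GA3ox2 lies at -0.94, just inside the lower line, and the other 3 lie between -0.09 and 0.21.

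The GA2ox enzymes inactivate gibberellins by hydroxylation. All 4 GA2ox genes were at or below 1.03 RPKM in both libraries, so none reached a mean of 1 RPKM. GA2ox2 (Solyc07g056670.2.1, chromosome 7) stood at 1.03 RPKM in SlCycB2-OE leaf and 0.51 RPKM in SlCycB2 RNAi leaf. That is 2.02 times the SlCycB2 RNAi level as deposited, but a log2 ratio of 0.43 with the pseudocount, and 12.4% of the 1000 genes nearest in mean level were at least 2-fold apart even with it. GA2ox4 (Solyc07g061720.2.1, chromosome 7) stood at 0.93 RPKM in SlCycB2-OE leaf and 0.67 RPKM in SlCycB2 RNAi leaf, a log2 ratio of 0.21. GA2ox5 (Solyc07g061730.2.1, chromosome 7) was listed at 0 in SlCycB2-OE leaf and at 0.24 RPKM in SlCycB2 RNAi leaf, and GA2ox1 (Solyc05g053340.2.1, chromosome 5) was listed at 0 in both. Of the 4 genes, 2 were thus higher in SlCycB2-OE leaf, 1 was lower and 1 was not detected, all near the floor. The read totals of the libraries are unknown, so the counting error of such low values cannot be given.

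The GA2ox sum was 1.96 RPKM in SlCycB2-OE leaf and 1.42 RPKM in SlCycB2 RNAi leaf. The GA3ox sum was 2.13 times the GA2ox sum in SlCycB2-OE leaf and 6.35 times in SlCycB2 RNAi leaf. For GA20ox the corresponding values were 10.97 times in SlCycB2-OE leaf and 15.3 times in SlCycB2 RNAi leaf. Both comparisons rest on GA2ox sums close to the floor, and transcript levels do not give the amount of hormone, which was not measured here.

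PROCERA (Solyc11g011260.1.1, chromosome 11), which encodes the DELLA repressor, was the most abundant of the 10 genes. It stood at 99.76 RPKM in SlCycB2-OE leaf and 89.65 RPKM in SlCycB2 RNAi leaf, a log2 ratio of 0.15. In SlCycB2-OE leaf 95.1% of detected genes had a lower level, and in SlCycB2 RNAi leaf 94.7% did. Its ratio was close to the middle of all compared genes, with 52.5% of them at a lower ratio. Of the 1000 genes nearest in mean level, 67% had a lower ratio. With the trimmed mean of ratios as the scale, the log2 ratio of PROCERA was 8.9e-04. DELLA proteins are controlled mainly by degradation, which transcript levels do not show.

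The rest of the pathway was described with 16 further identifiers, which were taken from general knowledge of the tomato genome and are not paired with names by the table. A RefSeq gene (assembly SLM_r2.1) was found for 7 of them through an assigned symbol, each on the chromosome that the identifier gives. The 7 were the loci listed as CPS, GA20ox4, GA2ox3, GID1 and GAST1. The loci listed as KS, KO, KAO and SLY1, and also Solyc02g080120 and Solyc10g007570, had no such match. Of the 16, 15 were in the table, 8 were compared, and 0 were 2-fold higher or 2-fold lower, beside the background of 2.60% and 1.92%. At the same mean filter, 6 of the 8 were higher and 2 lower in SlCycB2-OE leaf, with a median log2 ratio of 0.36. Over all compared genes 67.8% had a ratio above 0, and the median was 0.13.

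Among the early synthesis loci, the highest was Solyc12g006460, listed as KAO, an oxidase that acts just before the GA20ox steps. It stood at 84.03 RPKM in SlCycB2-OE leaf and 42.84 RPKM in SlCycB2 RNAi leaf, a log2 ratio of 0.96, and 2.93% of compared genes had a higher ratio. It was the nearest to 2-fold of the 8, in the direction opposite to GA3ox2. The locus listed as KS, Solyc07g066670, stood at 8.25 RPKM in SlCycB2-OE leaf and 5.83 RPKM in SlCycB2 RNAi leaf, a log2 ratio of 0.44. The 2 further KAO loci were low: Solyc01g080900 was at 0.59 RPKM in SlCycB2-OE leaf and 1.21 RPKM in SlCycB2 RNAi leaf, and Solyc10g007860 was listed at 0 in both. The early synthesis loci listed as CPS and KO were at 0.13 and 0.54 RPKM in SlCycB2-OE leaf. In SlCycB2 RNAi leaf they were at 0.26 and 0.32 RPKM, in the same order. The transcripts of early synthesis in this leaf were thus uneven, with 1 abundant locus and the others at or below 8.25 RPKM.

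Of the 4 further dioxygenase loci, 1 was compared. Solyc02g080120, listed as a GA2ox that acts on early precursors, stood at 2.27 RPKM in SlCycB2-OE leaf and 1.43 RPKM in SlCycB2 RNAi leaf, a log2 ratio of 0.43. The loci listed as GA2ox3 and GA20ox4 were at 0 in SlCycB2-OE leaf and at 0.35 and 0.14 RPKM in SlCycB2 RNAi leaf. The last, Solyc10g007570, was at 0.26 RPKM in SlCycB2-OE leaf and 0.25 RPKM in SlCycB2 RNAi leaf. As with the 4 GA2ox genes above, these values are near the floor.

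All 3 loci listed as GID1 receptors were compared, and all 3 were higher in SlCycB2-OE leaf by less than 2-fold. Over all compared genes 67.8% had a ratio above 0, so this direction was the common one. Solyc06g008870 had the largest ratio, at 4.87 RPKM in SlCycB2-OE leaf and 3.07 RPKM in SlCycB2 RNAi leaf, a log2 ratio of 0.53. Solyc01g098390 stood at 6.3 RPKM in SlCycB2-OE leaf and 4.99 RPKM in SlCycB2 RNAi leaf, a log2 ratio of 0.29. Solyc09g074270 stood at 2.57 RPKM in SlCycB2-OE leaf and 2.01 RPKM in SlCycB2 RNAi leaf, a log2 ratio of 0.25. In the same order, 88.4%, 69.9% and 64.9% of compared genes had a lower ratio than these loci. PROCERA stood at 7.26 times the summed level of the 3 receptor loci in SlCycB2-OE leaf and at 8.90 times in SlCycB2 RNAi leaf. The F-box locus Solyc04g078390, listed as SLY1, was at 50.16 RPKM in SlCycB2-OE leaf and 53.03 RPKM in SlCycB2 RNAi leaf. Solyc02g089350, listed as GAST1, a transcript first described as induced by gibberellin, was at 96.45 RPKM in SlCycB2-OE leaf and 121.9 RPKM in SlCycB2 RNAi leaf, a log2 ratio of -0.33, and 9.22% of compared genes had a lower ratio.

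**Figure D3:**
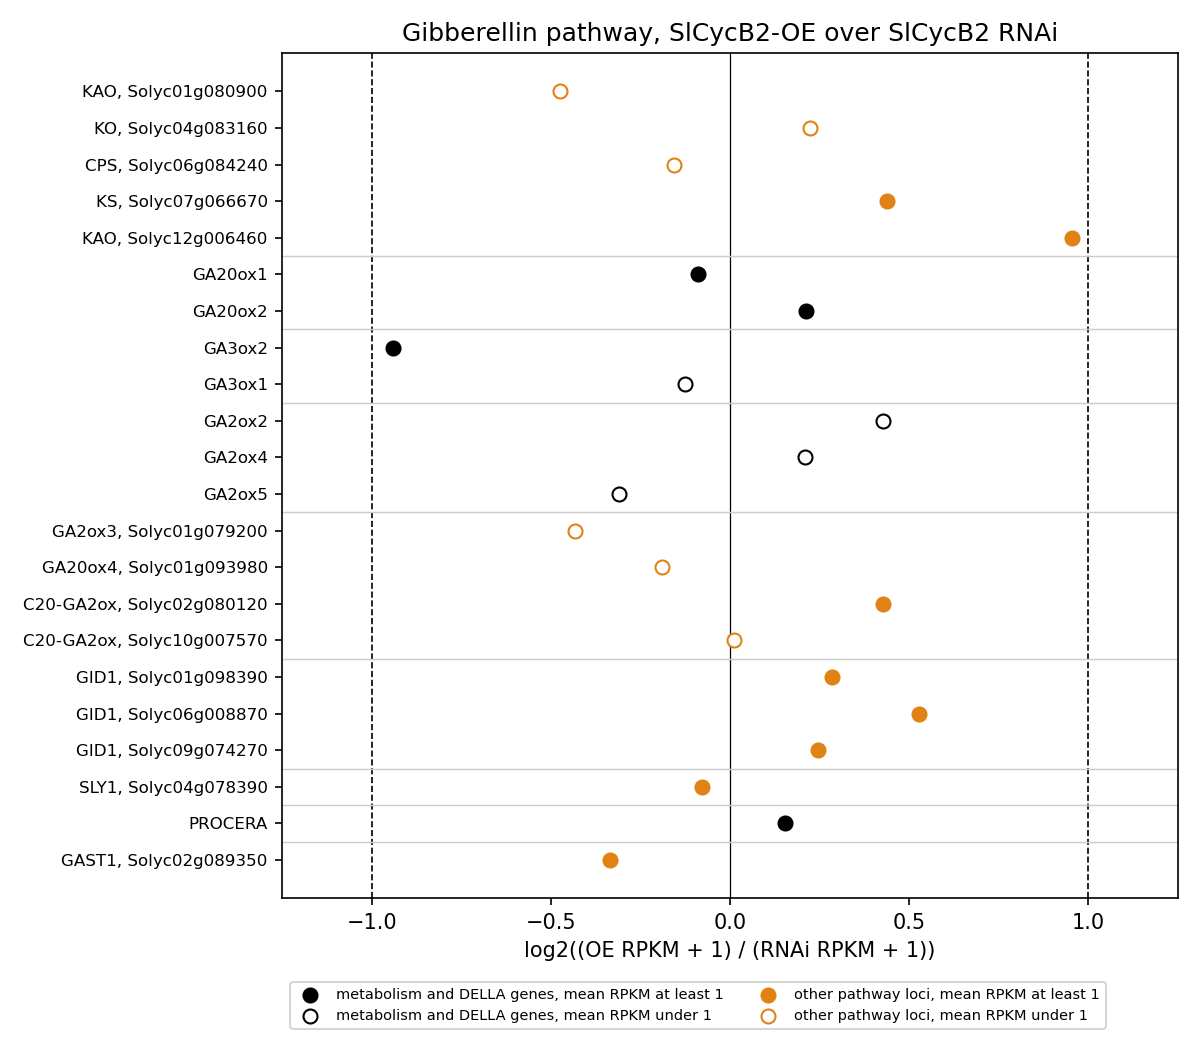
Log2 ratio of SlCycB2-OE over SlCycB2 RNAi (x axis, pseudocount of 1) for the metabolism and DELLA genes (black) and the other pathway loci (orange), ordered by step, with filled points for a mean of at least 1 RPKM, open points below it, and dashed lines at 2-fold; genes listed at 0 in both libraries are not drawn. All points lie inside the dashed lines, and the outermost are GA3ox2 at -0.94 and the KAO locus Solyc12g006460 at 0.96.

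KNOX factors of the shoot meristem are known to lower GA20ox transcripts. Whether these leaf samples held any meristem tissue was not tested. Of 3 loci listed as meristem markers, Solyc02g081120, listed as a KNOX gene, was at 4.0 RPKM in SlCycB2-OE leaf and 5.7 RPKM in SlCycB2 RNAi leaf, a log2 ratio of -0.42. Of the other loci, Solyc01g100510, also listed as a KNOX gene, was at 0 RPKM in SlCycB2-OE leaf and 0.16 RPKM in SlCycB2 RNAi leaf. Solyc02g083950, listed as the meristem gene WUS, was at 0 in both. The summed level of the 3 loci was 4.0 RPKM in SlCycB2-OE leaf and 5.86 RPKM in SlCycB2 RNAi leaf, nearly all from Solyc02g081120. The GA20ox sum was close to equal, at 21.5 RPKM in SlCycB2-OE leaf and 21.75 RPKM in SlCycB2 RNAi leaf. Any part of these loci in the levels of the gibberellin genes, GA3ox2 included, was not tested.

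By position, the 10 genes lie on chromosomes 3, 5, 6, 7 and 11 by their identifiers. GA2ox4 and GA2ox5 are consecutive rows of the table, with 0 rows between them, and RefSeq likewise places 0 gene starts between them. How reads that fit more than one gene copy were counted is not stated in the labels, so the split between GA2ox4 and GA2ox5 is uncertain. The rows within 5 places of the 10 genes, 85 in all without the genes themselves, included 50 compared genes, of which 4 passed 2-fold as higher and 3 as lower in SlCycB2-OE leaf. Together these 7 are 14% of the 50 with both directions pooled, while the shares over all compared genes, 2.60% higher and 1.92% lower, are per direction. Those shares are not matched for level. Of the 1000 genes nearest Solyc02g080120 (mean 1.85 RPKM) 9.5% were apart either way, and of those nearest GA20ox1 (mean 16.84 RPKM) 2.6% were. Of the 7, 3 are the adjoining rows beside GA2ox4 and GA2ox5 given below. GA3ox2 had 0 such rows among the 8 compared near it, whose ratios lay between -0.20 and 0.62. Next to GA2ox4 and GA2ox5, 3 consecutive compared rows were higher in SlCycB2-OE leaf. Of these, Solyc07g061750.2.1 was at 9.91 RPKM in SlCycB2-OE leaf and 2.43 RPKM in SlCycB2 RNAi leaf, Solyc07g061760.1.1 at 3.99 RPKM in SlCycB2-OE leaf and 0.51 RPKM in SlCycB2 RNAi leaf, and Solyc07g061770.2.1 at 6.47 RPKM in SlCycB2-OE leaf and 0.38 RPKM in SlCycB2 RNAi leaf. Beside GA20ox1, Solyc03g006830.2.1 was also higher, at 7.44 RPKM in SlCycB2-OE leaf and 1.09 RPKM in SlCycB2 RNAi leaf. The opposite direction was seen beside GA2ox1, where Solyc05g053330.2.1 was at 0.76 RPKM in SlCycB2-OE leaf and 2.97 RPKM in SlCycB2 RNAi leaf, beside GA3ox1, where Solyc06g066840.2.1 was at 0.96 RPKM in SlCycB2-OE leaf and 23.42 RPKM in SlCycB2 RNAi leaf, and beside GA20ox2, where Solyc06g035580.2.1 was at 0.7 RPKM in SlCycB2-OE leaf and 12.67 RPKM in SlCycB2 RNAi leaf. The table names none of these neighbouring rows.

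**Figure D4:**
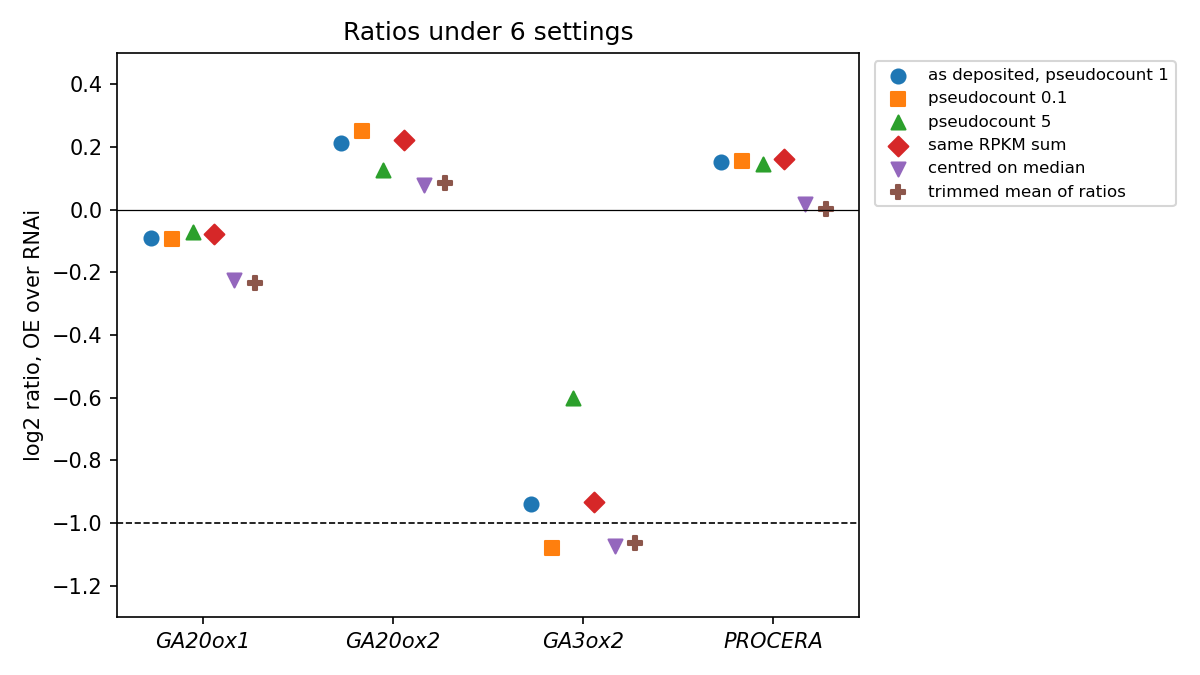
Log2 ratio of SlCycB2-OE over SlCycB2 RNAi (y axis) for the 4 compared gibberellin genes under 6 settings of pseudocount or scaling (symbols), with a dashed line at 2-fold lower. GA3ox2 runs from -1.08 to -0.60 and crosses the dashed line under 3 of the settings, while the other 3 genes lie between -0.23 and 0.25.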

How the data were processed

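RNA was measured in 2 leaf libraries, 1 SlCycB2-OE and 1 SlCycB2 RNAi, grouped by their labels. Frozen leaf was extracted with TRIzol and Illumina libraries were made, per the labels' protocols. The values deposited by the authors are RPKM, per the file headers, rounded to 2 decimals. The submitters' processing notes name TopHat, a spliced aligner, but neither its version nor its role. For the genome build, annotation, counting program and strand setting, the value is not given in the sources used here. Read totals are unknown, so no interval or detection limit is given. RPKM is relative to the mapped reads of the library, so a shift in abundant transcripts moves all other values. Any effect of the lower photosynthesis sum in SlCycB2-OE leaf on the other ratios was not tested.

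Ratios used a pseudocount of 1 over the whole table, among genes with a mean of at least 1 RPKM, with a 2-fold limit, and no p-value was computed. The 1000 genes nearest in mean RPKM gave the background at a similar level. The 9 alternatives were pseudocounts of 0.1 and 5, equal RPKM sums, centring on the median ratio, a trimmed mean of ratios (each end trimmed by 30% on the ratio and 5% on the level), no filter, a mean of at least 5 RPKM, and limits of 1.5-fold and 4-fold. The text names all 10 genes, the further pathway loci listed by identifier, the row with the highest ratio and the neighbouring rows at least 2-fold apart. The KNOX, flower and leaf loci are marker lists from general knowledge. Members and lists were chosen with earlier results of these data known. Names of the 10 genes came with their identifiers. Each of the 10 was matched to a RefSeq gene (SLM_r2.1) through an assigned symbol, which for some differed from the name, such as GAI for PROCERA. All 10 matches lay on the same chromosome, which checks the chromosome and not the name. No sequences were used here. The procedure was tested on simulated data with 4-fold changes in genes of at least 5 RPKM and random counting noise alone. That test does not cover differences near 2-fold, lower genes or variation between plants. Python 3.11.15, numpy 2.4.6, pandas 2.3.3 and matplotlib 3.10.9 were used.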

Additional observations from a re-analysis of the deposited data

How the results depend on the processing

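GA3ox2 was at least 2-fold lower in SlCycB2-OE leaf, as 1 of 4 compared genes, with a pseudocount of 0.1, after centring on the median and after the trimmed mean of ratios, and 1 of 4 also passed the 1.5-fold limit; in each other setting the count was 0 lower, and in all 9 it was 0 higher. The further pathway loci had 1 higher (the KAO locus Solyc12g006460) at the 1.5-fold limit. Over all compared genes, the counts higher and lower in SlCycB2-OE leaf were 901 and 573 with a pseudocount of 0.1, 141 and 128 with 5, 222 and 155 at a mean of at least 5 RPKM, 96 and 99 at 4-fold, and 1823 and 893 at 1.5-fold. Genes higher in SlCycB2-OE leaf numbered 369 against 482 lower after centring, and 375 against 442 after the trimmed mean, which lowered ratios by 0.15 (log2) before the pseudocount, so the balance of directions turned under these 2 scalings, while equal RPKM sums left it at 514 higher and 361 lower. The median of the 4 gibberellin genes likewise changed sign, to -0.10 after centring and -0.12 after the trimmed mean, and was 0.04 with equal RPKM sums. Of 40 values of 8 genes under other pseudocounts and scalings, 38 moved by less than 1 SD of genes of similar level. That count is no measure of robustness, since the scalings shift ratios by about 0.15 (log2) or less, small beside most of these SDs. The values of GA3ox2 are among the 38 although its call changed. GA2ox5 and GA3ox1, both listed at 0 in SlCycB2-OE leaf, moved to -1.77 and -0.93 with a pseudocount of 0.1, by the construction of that setting. No library could be left out. No paired analysis was possible because each side has a single library.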
